A study of Mus musculus with 2 samples.

Results

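Of the 15146 H3K4me3 peaks of replicate 1 that touched a protein-coding promoter, 2407 overlapped no peak of replicate 2, and these 2407 peaks are described here. They were selected on the authors' peak lists themselves: a peak of the replicate 1 list within 1000 bp of an annotated protein-coding transcript start, with not 1 bp in common with any peak of the replicate 2 list. The presence in replicate 1 and the absence in replicate 2 are therefore the choice and not a finding. Replicate 1 had 20031 peaks in all and replicate 2 had 16376. The 2407 peaks divide into 1485 at genes that also carried a promoter peak shared by both replicates, called partnered peaks, and 922 at genes that carried none, called lone peaks. Of the partnered peaks, 20 also touched a gene without a shared peak.

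The data are ChIP-seq of trimethylated lysine 4 of histone H3 in bone marrow-derived macrophages, primary phagocytes grown out of mouse marrow. There was 1 group of 2 biological replicates, both from unstimulated C57BL/6J cells and both started from 10 ng of DNA, with fragment sizes given as 350 to 480 without a unit. The labels give both replicates the same donor entry and separate cell preparations, and nothing states that these came from separate animals, so the spread between them may be technical. Cells are bulk, so a weak peak from a few strongly marked cells and one from many weakly marked cells cannot be told apart.

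H3K4me3 is deposited by the SET1 and MLL methyltransferase complexes around the starts of active genes, mostly on the nucleosomes that flank the nucleosome-free start. CpG-rich promoters recruit these complexes through CXXC-domain proteins that bind unmethylated CpG, and many of them carry the mark at some level even where transcription is low. CpG-poor promoters, common among inducible immune genes and tissue-restricted genes, tend to gain it with transcription. In macrophages many promoters of the inflammatory response are held at a low or poised level until a stimulus arrives.

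The lone peaks lay near starts of very different base composition, which is why 6 stretches are shown before the values: the 250 bases before the coding start nearest to the peak, on the strand of the gene, from the GRCm38.p6 assembly, with each CG in capitals. Spry1, an inhibitor of receptor tyrosine kinase signalling, and Dennd5b, an exchange factor for Rab GTPases, had some of the highest CpG ratios among lone peaks. Chrnb1, the beta subunit of the muscle acetylcholine receptor, Cngb1, a subunit of the rod photoreceptor channel, and Nlrp1a, an inflammasome sensor, are from the lone peaks of highest fold. Ms4a4c, a membrane-spanning protein of immune cells, had one of the lowest CpG ratios. Its peak, with a fold of 2.99, lay 543 bp downstream of the start and does not cover the stretch shown.
Spry1 (chr3:37639830-37640079, plus strand): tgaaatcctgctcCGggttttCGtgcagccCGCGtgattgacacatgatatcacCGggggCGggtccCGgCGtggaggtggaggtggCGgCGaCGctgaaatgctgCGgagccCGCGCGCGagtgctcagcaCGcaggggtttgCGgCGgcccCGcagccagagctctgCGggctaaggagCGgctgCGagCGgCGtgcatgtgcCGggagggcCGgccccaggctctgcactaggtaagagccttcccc
Dennd5b (chr6:149101681-149101930, minus strand): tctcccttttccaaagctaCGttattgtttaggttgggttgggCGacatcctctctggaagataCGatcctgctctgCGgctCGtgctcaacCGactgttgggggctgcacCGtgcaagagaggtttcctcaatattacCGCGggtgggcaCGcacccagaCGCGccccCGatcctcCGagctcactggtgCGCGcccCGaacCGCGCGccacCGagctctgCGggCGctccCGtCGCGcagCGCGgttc
Chrnb1 (chr11:69795944-69796193, minus strand): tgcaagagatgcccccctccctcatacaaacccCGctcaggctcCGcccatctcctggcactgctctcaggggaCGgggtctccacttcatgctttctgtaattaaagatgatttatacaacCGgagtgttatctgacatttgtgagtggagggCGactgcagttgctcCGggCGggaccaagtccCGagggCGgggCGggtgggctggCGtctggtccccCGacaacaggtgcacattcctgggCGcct
Cngb1 (chr8:95294075-95294324, minus strand): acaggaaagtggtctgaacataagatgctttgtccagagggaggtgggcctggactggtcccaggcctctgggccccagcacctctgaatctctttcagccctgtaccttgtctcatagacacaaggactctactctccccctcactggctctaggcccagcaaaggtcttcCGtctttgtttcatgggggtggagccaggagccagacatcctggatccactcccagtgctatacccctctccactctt
Nlrp1a (chr11:71144705-71144954, minus strand): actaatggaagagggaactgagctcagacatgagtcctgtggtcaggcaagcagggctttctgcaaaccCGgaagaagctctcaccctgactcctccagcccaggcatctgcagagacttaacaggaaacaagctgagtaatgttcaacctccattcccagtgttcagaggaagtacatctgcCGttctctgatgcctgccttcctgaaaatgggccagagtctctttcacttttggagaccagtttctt
Ms4a4c (chr19:11407411-11407660, plus strand): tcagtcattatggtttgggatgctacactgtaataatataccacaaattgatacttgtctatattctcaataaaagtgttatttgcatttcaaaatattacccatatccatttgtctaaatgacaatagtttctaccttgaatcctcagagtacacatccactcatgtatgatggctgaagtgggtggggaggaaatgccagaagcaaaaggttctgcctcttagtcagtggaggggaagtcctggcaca
The stretch held 27 CG in Spry1, 28 in Dennd5b and 13 in Chrnb1. It held 1 in Cngb1, 2 in Nlrp1a and 0 in Ms4a4c. These stretches ran from CG-dense to without a CG, a range set in part by picking some of them for their CpG ratio.

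Lack of a replicate 2 peak was less frequent at coding promoters than elsewhere and closely followed the fold. Fold means the enrichment value that the authors gave each peak; the lists do not name its baseline. Of all replicate 1 peaks, 26.1% overlapped no replicate 2 peak. The share was 15.9% at coding promoters (2407 of 15146) and 57.9% among all other peaks (2828 of 4885). Within bands of equal fold this order was not seen. At a fold of 6 to 8, 81.3% of coding promoter peaks lacked a replicate 2 peak (95% Wilson interval 78.3 to 84.0%) and 73.7% of other peaks did (70.4 to 76.8%). At a fold of 8 to 10 the shares were 49.5% at coding promoters (45.8 to 53.2%) and 40.4% elsewhere (36.1 to 44.9%). At a fold of 20 and over, 0 of 9823 coding promoter peaks and 0 of 651 other peaks lacked one. At equal fold, then, coding promoter peaks lacked a replicate 2 peak slightly more often than other peaks in the bands from 6 to 10, while at 10 to 12 the intervals overlapped. These intervals, like all intervals below, cover counting error only and treat peaks as independent, which they are not. No read counts were used, so the depth of either library is unknown. The median fold of all peaks was 21.7 in replicate 1 and 10.7 in replicate 2, and the part of this gap in the lack of replicate 2 peaks was not tested.

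**Figure D1:**
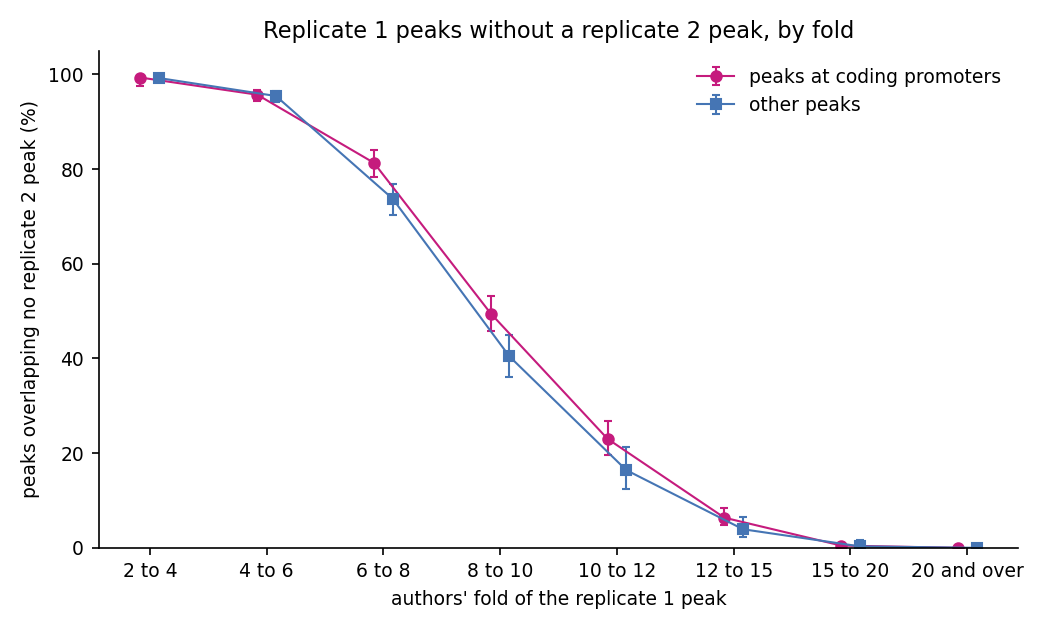
Share of replicate 1 peaks that overlapped no replicate 2 peak (y axis, %) against the authors' fold of the peak in replicate 1 (x axis, bands), for peaks at coding promoters and for all other peaks; bars are 95% Wilson intervals. Both curves fall from about all peaks below a fold of 4 to 0 at 20 and over, and the coding promoter points lie above the others between 6 and 12.

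Fold and width set these peaks apart by the way they were chosen, so the values are a description. Partnered peaks had a median fold of 6.02 (2.62 to 17.0) and lone peaks 5.61 (2.49 to 14.0), while shared coding promoter peaks had 33.3 (2.62 to 69.9). The fold was below 8 in 77.0% of partnered, 79.9% of lone and 1.44% of shared peaks. Median widths were 420 bp for partnered, 510.5 bp for lone and 1401 bp for shared peaks. In both classes a higher fold went with a wider peak (Spearman's rho 0.37 over 1485 partnered and 0.37 over 922 lone peaks, across peaks of 1 library). Not all were weak: 43 partnered and 12 lone peaks had a fold of 12 or more.

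At the edges of the rule, F13a1 (coagulation factor XIII A chain) and Angpt2 (angiopoietin 2) were the last peaks inside the window, each with its nearer edge 998 bp from the start and folds of 3.18 and 3.54. The next peaks, near Gngt2 and Sbno2, lay 1001 and 1003 bp from a start with folds of 3.36 and 3.92. On the side of overlap, the peak at Vrk1 (a nuclear kinase) came within 17 bp of a replicate 2 peak and that at Rps6ka5 (the kinase MSK1) within 58 bp. The shared peaks with the least overlap were those at Wif1 with 46 bp and Atp5g2 with 75 bp. The opposite case was rare: 10 of the 16376 replicate 2 peaks overlapped no replicate 1 peak, and 3 of these lay at coding promoters, those of Btbd6, Pram1 and Usp2.

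The 2 lists made from both replicates recorded many of these peaks. A pooled list was called on the reads of both replicates together, and a replicated list was made from both. The pooled list held 74.5% of the 2407 peaks (72.7 to 76.2%), against 100% of shared coding promoter peaks and 92.2% of all replicate 1 peaks. The replicated list held 38.3% (36.4 to 40.3%), against 100% of shared coding promoter peaks and 83.0% of all replicate 1 peaks. Neither list held 25.3% of them. Partnered and lone peaks had nearly the same support, with 74.6% of partnered and 74.3% of lone peaks in the pooled list, and 38.9% of partnered and 37.3% of lone peaks in the replicated list. Of the 2828 unshared peaks outside coding promoters, 66.2% were in the pooled and 31.9% in the replicated list. The groups also differed in fold, with 302 of the 2407 coding promoter peaks and 773 of the 2828 others below a fold of 4. Both lists contain the reads of replicate 1, so their support is not independent of it. At 16 partnered peaks the pooled peak also covered the neighbouring shared peak, as at Vrk1, where the pooled peak had a fold of 32.75 and the replicate 1 peak 4.86.

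Partnered and lone peaks differed in where they lay. Partnered peaks were mostly small peaks upstream of a strongly marked start: 32.8% had their centre downstream of the nearest start (30.5 to 35.2%), against 63.0% of lone peaks (59.9 to 66.1%) and 70.1% of shared peaks (69.3 to 70.9%). The median centre lay 240 bp upstream for partnered peaks, 143.5 bp downstream for lone peaks and 280 bp downstream for shared peaks. The start itself was covered by 25.3% of partnered, 45.1% of lone and 63.2% of shared peaks. Lone peaks thus had the downstream position of shared peaks on a smaller scale, and partnered peaks did not. A partnered peak by definition does not reach the shared peak of its gene, so its position is in part set by the choice.

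**Figure D2:**
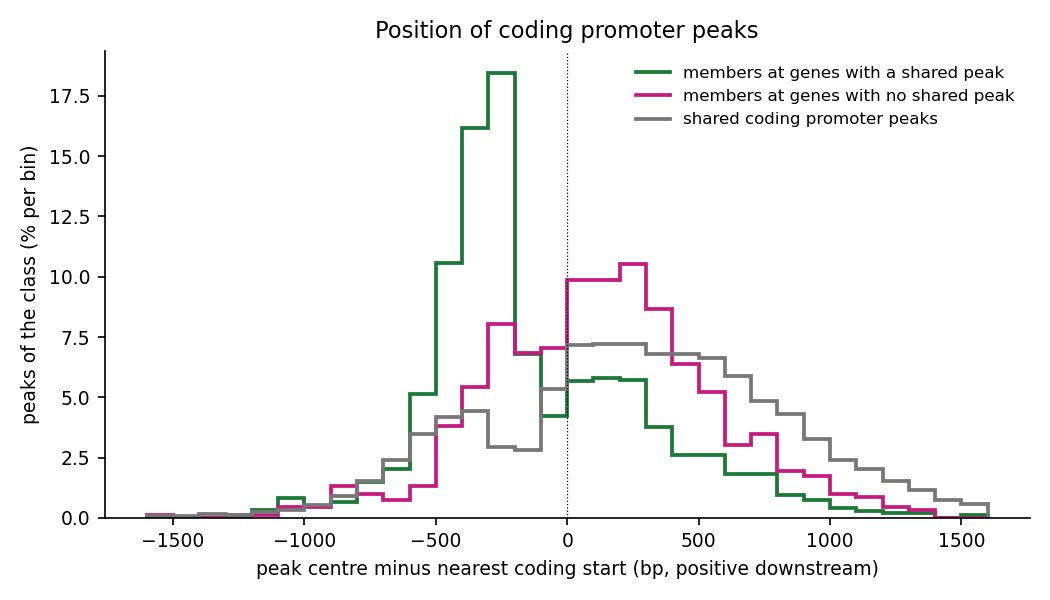
Distance of the peak centre from the nearest coding start (x axis, bp, positive downstream) as the percentage of each class per bin of 100 bp (y axis). Partnered peaks (members at genes with a shared peak) pile up 200 to 400 bp upstream, while lone peaks (members at genes with no shared peak) and shared peaks have most of their centres downstream.

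Most partnered peaks were close neighbours of the shared peak. In 1274 of 1485 (85.8%) the shared peak touched the window of the same start, with a median gap of 230 bp between the peaks. The other 211 lay at another start of the gene, with a median gap of 22500 bp. These 211 looked different in sequence: their median CpG ratio was 0.379, against 0.691 for the 1274, and 23.7% of them were at the 5′ end of the gene, against 65.7%. They were thus mostly weak peaks at CpG-poor starts other than the 5′ end of the gene. Of the 5 widest partnered peaks, 3 were among these 211. Elmo2, which acts with DOCK proteins in engulfment and migration, had a peak of 2398 bp with a fold of 6.17 and a CpG ratio of 0.239. Cyth1, an exchange factor for ARF GTPases, had one of 2125 bp with a fold of 11.6 and a ratio of 0.181, and its shared peak lay 33868 bp away with a fold of 29.5. Rapgef6, an exchange factor for RAP GTPases, had one of 1469 bp with a fold of 5.49, 167137 bp from its shared peak. The remaining members of the 5 widest, Smad7 and Gngt2, both lay beside the shared peak, with gaps of 57 and 140 bp; the Gngt2 peak also lies in the window of Abi3.

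Relative to its shared neighbour a partnered peak was weak, with a median fold ratio of 0.225 and a median neighbour fold of 29.2. The highest folds among partnered peaks were 17.0 at Bcl6, a transcriptional repressor that restrains inflammatory genes in macrophages, and 16.6 at Hsf2, a heat shock factor. Gpr180, Nab1 (a corepressor of EGR factors) and Ncoa1 (a nuclear receptor coactivator) followed with 15.7, 15.5 and 15.3. The Bcl6 peak also lies in the window of Gm37419. All 5 lay within 600 bp of their shared peak at starts with CpG ratios from 0.755 to 0.9. At Hsf2 and Ncoa1 the shared peak was itself modest, with folds of 14.4 and 12.7, so at these starts the unshared peak was the higher of the pair.

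The 10 lone peaks of highest fold had values close to each other. In replicate 1 the fold was 14.0 at Chrnb1, 13.45 at Lims2 (a focal adhesion adaptor), 12.9 at Mmp28 and at Xk, and 12.7 at Cngb1, Rtl8c and Unc119b. Mmp28 is a secreted metalloproteinase and Xk the membrane partner of the Kell blood group protein. Nlrp1a had 12.5, and Dennd5b and Mmp25, a membrane-bound metalloproteinase of leukocytes, had 12.3. Replicate 2 had no peak at any of the 10, and the nearest replicate 2 peak lay between 8738 bp (Mmp28) and 237161 bp (Rtl8c) away. The pooled list held all 10, with folds from 7.27 to 8.19, and the replicated list held all but Chrnb1. The Rtl8c peak also lies in the window of Gm14597 and cannot be assigned to either.

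The widest lone peaks lay over starts and ran into the gene. Adm, which encodes the vasodilator peptide adrenomedullin, had a peak of 2015 bp with a fold of 5.79. Mfng, a glycosyltransferase that modifies Notch receptors, had 1894 bp and a fold of 9.34, and Gna14, a G protein alpha subunit, 1736 bp and 8.59. Fabp4, a fatty acid-binding protein of fat cells and macrophages, had 1668 bp and 5.18, and Fat3, an atypical cadherin, 1665 bp and 6.73. All 5 were in both the pooled and the replicated list.

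The CpG observed/expected ratio over 1000 bp on either side of the nearest start was not part of the choice. It had a median of 0.667 at partnered peaks, 0.563 at lone peaks, 0.657 at shared peaks and 0.452 over all 54329 coding starts. Starts with no peak in either replicate had 0.228. A ratio of at least 0.6 was found at 65.4% of partnered (62.9 to 67.8%), 44.0% of lone (40.9 to 47.3%) and 62.4% of shared peaks (61.6 to 63.2%), against 32.7% of all coding starts and 9.42% of starts without a peak. Lone peaks thus lay between shared peaks and unmarked starts. The likeness of partnered and shared peaks is in part set by the choice. At 1274 of the 1485 partnered peaks a shared peak touched the window of the same start. The 211 partnered peaks at another start had a median of 0.379, below that of lone peaks. The order of partnered and lone peaks depended on the window: over the peak itself the medians were 0.543 for partnered, 0.576 for lone and 0.585 for shared peaks. Lone peaks were below shared peaks in every band of fold from 4 to 12, for example 0.571 against 0.627 at 4 to 6 and 0.593 against 0.614 at 8 to 10. No test is given, since peaks of 1 library are not replicates.

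**Figure D3:**
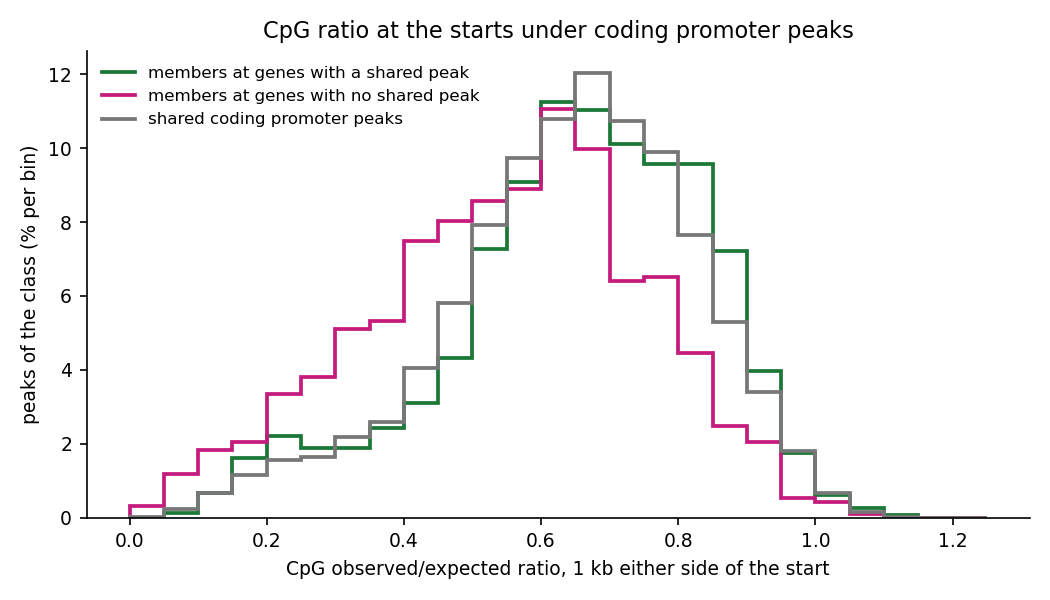
CpG observed/expected ratio within 1000 bp of the nearest coding start (x axis) as the percentage of each class per bin of 0.05 (y axis). The lone peaks (members at genes with no shared peak) have their median at 0.563 and extend further to the left than partnered peaks (0.667) and shared peaks (0.657).

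The highest CpG ratios at lone peaks were 1.05 at Spry1, 1.04 at Bmpr1a (a BMP receptor), 1.03 at Zbtb10, 1.02 at Dennd5b and 0.989 at Nfix (a transcription factor of neural and muscle development), with folds from 4.67 to 12.33. The lowest were 0.022 at Olfr804, 0.041 at Ms4a4c, 0.048 at Pilra and 0.056 both at Ifi208 and at the shared window of Gbp6 and Gm43302, with folds from 2.99 to 5.04. Olfr804 is an odorant receptor, Pilra an inhibitory receptor of myeloid cells, Ifi208 a member of the interferon-inducible PYHIN family and Gbp6 an interferon-inducible GTPase.

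Short motifs were searched on both strands in the 300 bases from 250 before to 50 after the start. Only the GC box and CACGTG, the E-box, followed the order of classes seen for the CpG ratio. GGGCGG, the GC box, was found at 74.8% of 1439 partnered starts, 61.4% of 861 lone starts and 67.7% of 11807 shared starts, against 43.1% of all coding starts. CCGGAAG, an ETS motif of the GABPA type common at housekeeping promoters, was found at 11.9% of partnered (10.3 to 13.7%), 5.46% of lone (4.13 to 7.18%) and 18.8% of shared starts (18.1 to 19.5%), against 10.7% of all coding starts. The NRF1 motif, also typical of housekeeping promoters, was found at 1.81% of partnered, 0.581% of lone and 2.19% of shared starts, and at 1.14% of all. TATAAA was found at 6.32% of partnered, 6.97% of lone and 5.31% of shared starts, and at 11.3% of all. Starts of lone peaks therefore held the housekeeping-type ETS motif less often than shared starts, in intervals that do not overlap.

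Motifs of immune-cell factors were counted in the CpG-poor and the CpG-rich lone starts. Where the CpG ratio was under the median of lone peaks, AGGAAGT, an ETS motif of the PU.1 type, was found at 10.5% of 449 starts (7.96 to 13.6%), against 4.13% of 412 starts at or above the median. TGANTCA, the AP-1 motif, was found at 9.58% of the CpG-poor (7.19 to 12.7%) and 3.40% of the CpG-rich lone starts. The ISRE-like motif, bound by interferon regulatory factors, was found at 6.24% of the CpG-poor (4.35 to 8.87%) and 2.43% of the CpG-rich lone starts. Over all coding starts AGGAAGT was at 8.72%, TGANTCA at 6.57% and the ISRE-like motif at 3.54%. Coding starts with no peak in either replicate, which are CpG-poor as well, held AGGAAGT at 8.44%, TGANTCA at 8.82% and the ISRE-like motif at 3.93%. The values for AGGAAGT and TGANTCA lie inside the intervals of the CpG-poor lone starts. CCAAT, TGACGTCA and CACGTG were found at 31.1, 2.67 and 6.97% of lone starts and at 36.1, 3.17 and 10.3% of shared starts. At partnered starts they were found at 33.1, 2.92 and 12.2%. AGGAAGT and CCGGAAG each occur once in the stretch of Nlrp1a printed above, and GGGCGG occurs 4 times in that of Chrnb1. A match is only a string of letters in the window and says nothing of binding.

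At the level of genes, 829 of 21853 coding genes (3.79%) had at least 1 of these peaks and no shared promoter peak, 10737 (49.1%) had a shared peak, and 1445 (6.61%) had both a shared peak and one of these. Of the 829 genes, 133 had 2 or more such peaks and 696 had 1. By tertile of the CpG ratio at the 5′ end, the 829 genes made up 1.84% of genes in the lowest, 5.38% in the middle and 4.16% in the highest tertile. As a share of the genes with any replicate 1 promoter peak, they were 13.5% in the lowest (11.5 to 15.7%), 8.84% in the middle (8.04 to 9.71%) and 4.94% in the highest tertile (4.42 to 5.51%). Genes with a replicate 1 promoter peak thus lacked a shared one more often where their 5′ end was CpG-poor. These shares were not matched for fold.

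The lists of lineage and function show which genes these were. Macrophage markers were nearly all shared, 26 of 30. Of the rest, Axl, a receptor kinase that takes up apoptotic cells, had an unshared peak with a fold of 5.04, and 3 had no replicate 1 peak. The marker list was drawn up with earlier results of these data known, so it is no independent check of the labelled cell type. All 26 genes of the cell cycle and all 20 housekeeping genes were shared, and so none of them was among the 829. Genes of the 829 were found in 22 of the 28 lists, and the counts below stand beside the 3.79% over all coding genes. In 10 lists the interval lay above that value: stem and progenitor, tissue-resident macrophage, dendritic and endothelial cells, both inflammatory lists, class II, alternative activation, growth factor receptor kinases and, narrowly, developmental regulators. Lists are small, share some genes and were drawn up with earlier results of these data known, so this is a description. The counts also depended on the choices: of the 28 list counts, 13 moved by over 1.5 times with the replicated list in place of replicate 2, 19 with the 15000 top peaks alone and 7 with 1 start per gene.

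The stem and progenitor list had the highest share, 7 of 22 genes (31.8%, 16.4 to 52.7%). In replicate 1 the fold was 9.16 at Ctnnal1, an alpha-catenin-like protein of stem cells, and 8.41 at Mecom, the transcription factor EVI1. Cd34, a surface sialomucin, had 7.66, Hlf, a bZIP factor of stem cells, 7.29, and Ly6a, the surface antigen Sca-1, 6.54. Gata2, the progenitor GATA factor, had 6.17 and Esam, an adhesion molecule, 4.11. The pooled list held 6 of the 7, all but Esam. Another 8 genes of the list had a shared peak. The 7 became 4 with 1 start per gene, still the highest share. They became 2 both with the replicated list and with the 15000 top peaks. There 3 of 20 endothelial genes and 2 of 20 genes of alternative activation, respectively, gave higher shares. Over all coding genes the 829 became 811, 482 and 167 under these 3 settings, so much of the fall was not particular to this list.

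In the lists of specialised macrophage programmes and of dendritic cells, most genes were shared or had no replicate 1 peak. The tissue-resident list had 8 shared genes and 11 with no replicate 1 peak. These counts were 6 and 10 for alternative activation, and 6 and 15 for dendritic cells. Of 24 tissue-resident macrophage genes 5 were among the 829 (3 with 1 start per gene, 2 with the replicated list and 0 with the 15000 top peaks), namely Epcam with a fold of 7.85, Fabp4 with 5.18, Folr2 and Gata6 with 5.04 each, and Cd5l with 4.30. Folr2 is a folate receptor of resident macrophages, Gata6 the factor of peritoneal macrophages and Cd5l a secreted scavenger protein. Epcam is also in the epithelial list and Gata6 among the developmental regulators. Of 20 genes of alternative activation 4 were found, Fn1 (fibronectin) with 8.97, Socs2 with 8.41, Arg1 (arginase) with 4.86 and Il1rn (the interleukin 1 receptor antagonist) with 4.30. The 4 became 2 both with the replicated list and with the 15000 top peaks. Of 24 dendritic cell genes 3 were found, Kmo, a kynurenine hydroxylase, with 3.92, and the peptidase Dpp4 and the factor Zbtb46 with 3.74 each. The neutrophil list, the T and NK cell list and the erythroid list had 0 such genes among 21, 35 and 22, and 1 of 24 B cell genes was found, the receptor subunit Cd79b with 4.18.

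Some inducible genes of the inflammatory response were among the 829. Of 20 primary response genes, which need no new protein synthesis, 3 were among the 829 and 13 were shared. Ptgs2, the inducible cyclooxygenase, had a fold of 8.41, Cxcl2 5.42 and Cxcl1 4.48, both of these being neutrophil-attracting chemokines. Of 20 secondary response genes, 3 were among the 829 and 6 were shared. Il12a, a subunit of interleukin 12, had 9.53, Il27 7.66 and Il6 4.67. Of 29 interferon-stimulated genes, Cxcl10 with 6.04 and Ifi44 with 5.23 were found and 25 were shared. The pooled list held all 8 of these genes, with folds from 3.01 to 5.60.

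Receptors and antigen presentation had a few members each. In the class II list 3 of 17 genes were found: Ciita, the master activator of class II genes, with a fold of 5.23, H2-Ob with 3.18, and Cd74, the invariant chain, with 3.01. The 3 became 1 with a −log10 q of at least 5, 2 with the replicated list and 0 with the 15000 top peaks. Tlr9, the endosomal sensor of unmethylated CpG DNA, had the highest fold of any listed gene, 10.8, and was the one gene of 23 pattern-recognition receptors. Ccr2, the receptor that brings monocytes into tissue, had 4.11, and Cmklr1, the chemerin receptor, 5.61, among 28 chemoattractant receptors. Of 30 genes of lipid mediators and lipid handling, Alox5 (5-lipoxygenase) had 3.36, beside Ptgs2 and Fabp4. The mast cell list held Gata2 and the fibroblast list Fn1.

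**Figure D4:**
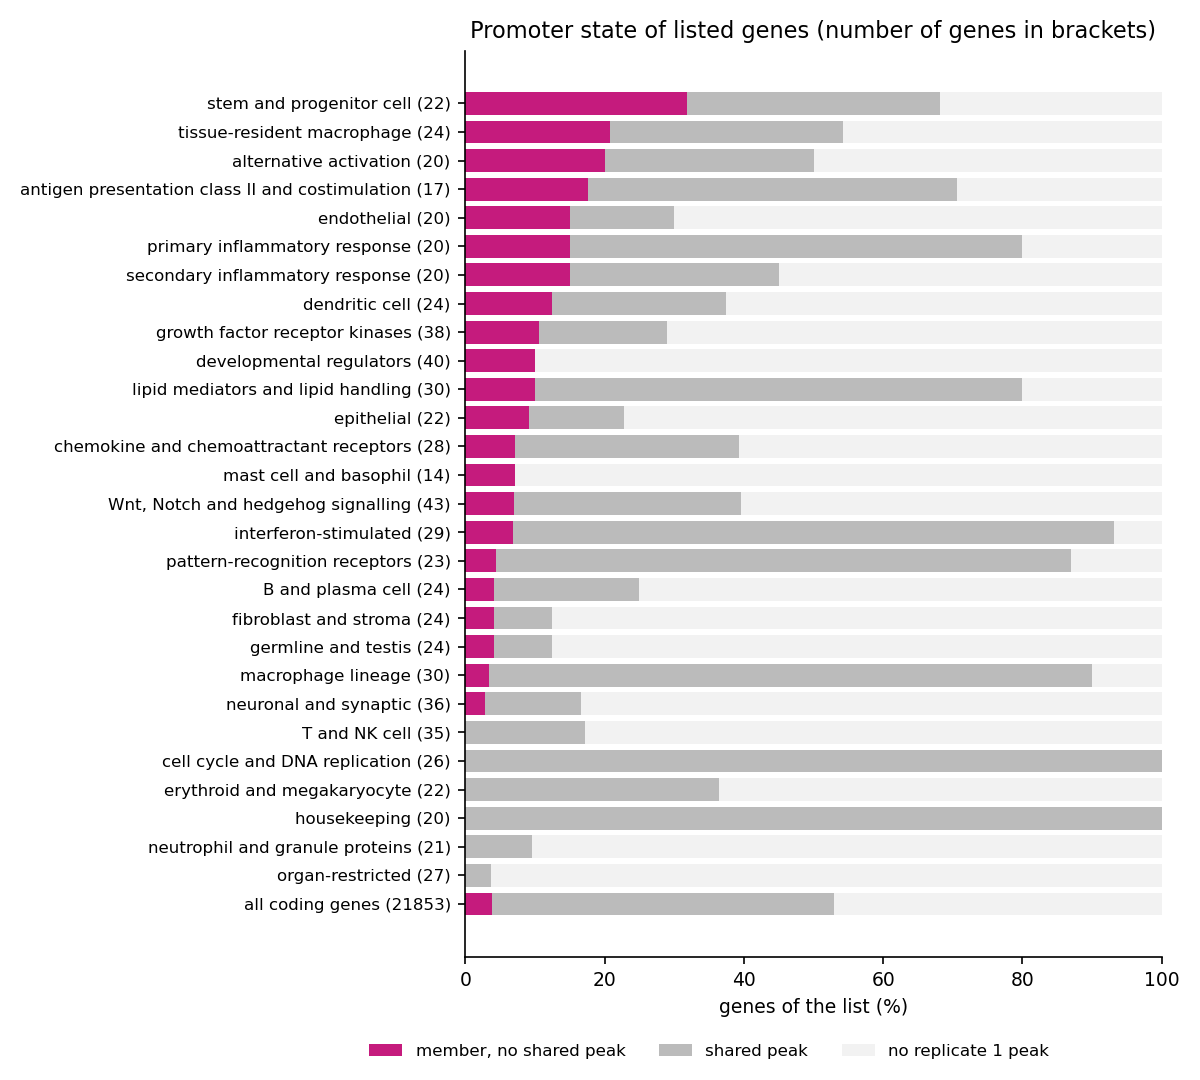
Percentage of the genes of each list (x axis) with one of these peaks and no shared promoter peak, with a shared promoter peak, and with no replicate 1 promoter peak; the number of genes is in brackets and all coding genes are the lowest bar. The stem and progenitor list has the longest first segment (31.8%), and the cell cycle and housekeeping lists consist of shared genes.

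Of 40 developmental regulators 4 were found and 0 were shared: Dlx1 with a fold of 6.54, Gata6 with 5.04, Dlx2 with 4.11 and Neurog2 with 3.36. Of 38 growth factor receptor kinases 4 were found, Epha2 with 5.79, Axl with 5.04, and Egfr and Met with 4.86 each. The Wnt, Notch and hedgehog list had 3 of 43, the signal transducer Smo with 5.98, the Notch ligand Dll4 with 4.86 and the Wnt receptor Fzd8 with 4.11. Endothelial genes were Egfl7 with 5.61, Dll4 and Esam, and epithelial genes were Epcam and the tight junction protein Ocln with 5.42. The germline gene Dppa3 had 9.53 and the synaptic vesicle gene Syp 3.36, while the organ-restricted list had 0 of 27.

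The listed genes of blood and immunity and those of other tissues differed in CpG ratio; the lists were joined in this way after their values were seen. Of 331 genes in the blood and immune lists, 26 were among the 829, with a median ratio of 0.311 at the start under the peak. Of 256 genes in the lists of other tissues and of development, 14 were, with a median of 0.588. The stem and progenitor list, whose 7 genes had a median of 0.533, and the erythroid list were in neither group. Genes in lists of both groups were left out, such as Epcam with 0.851 and Axl with 0.249. Shared genes were measured at the 5′ end of the gene. There the 26 had a median of 0.293 and the shared genes of the blood and immune lists 0.315. In the lists of other tissues and of development the 14 had 0.579 there and the shared genes 0.627. The medians of the weak genes were thus a little lower than those of the shared genes in both groups, without an interval. Single lists went either way. At the 5′ end the medians of weak and shared genes were 0.200 and 0.257 in the secondary response list. In the interferon-stimulated list they were 0.297 and 0.216. At the start under the peak, Ccr2 had 0.109, Cd74 0.134, Tlr9 0.147, Il27 0.182 and Il6 0.200. Neurog2 had 0.860, Dlx2 0.780, Dlx1 0.697 and Met 0.678.

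**Figure D5:**
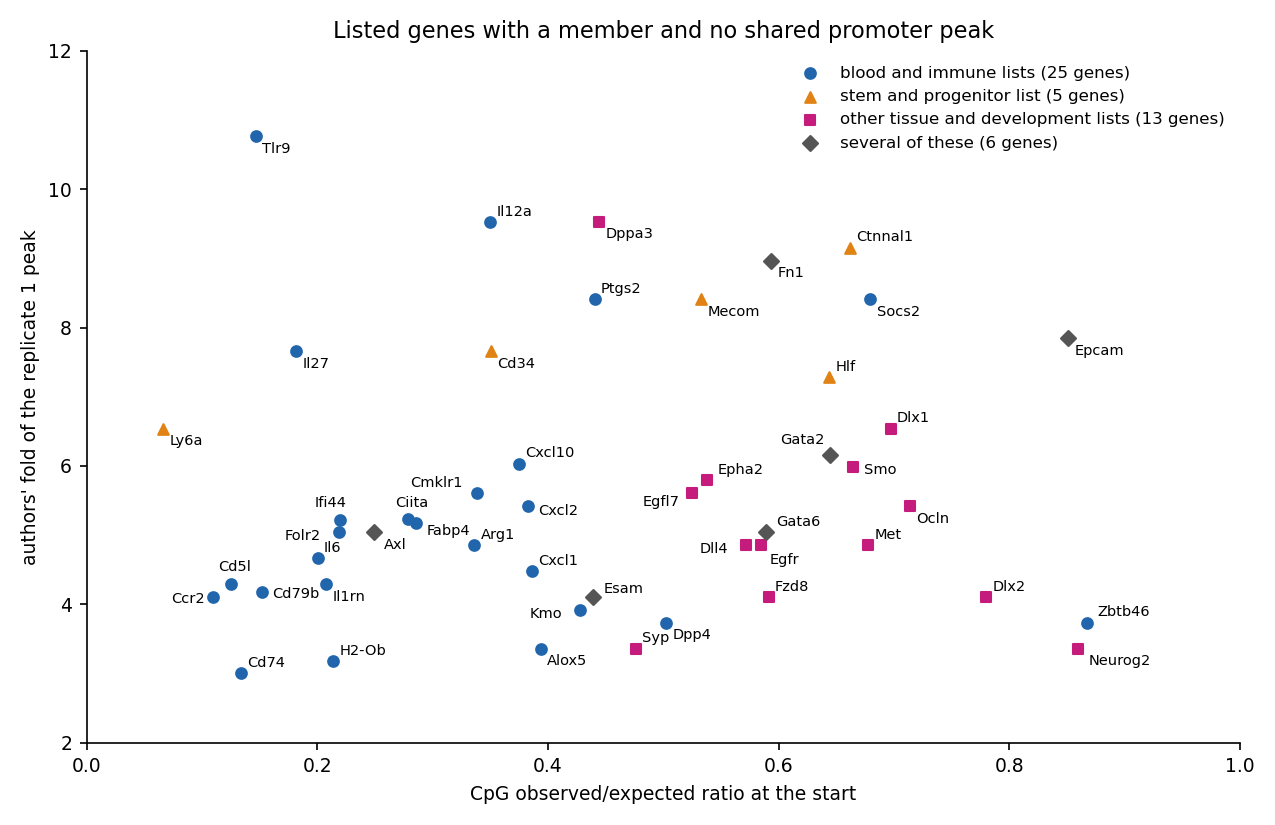
The authors' fold in replicate 1 (y axis) against the CpG observed/expected ratio at the start under the peak (x axis) for each listed gene with one of these peaks and no shared promoter peak; symbols give the kind of list. Blood and immune genes lie mostly below a ratio of 0.45, with Zbtb46, Socs2 and Dpp4 as the exceptions, and genes of other tissues and development lie between 0.445 and 0.860.

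Families by gene symbol were counted in the same way. Collagens, laminins and ADAMTS proteases of the extracellular matrix had 8 of 80 genes (10.0%), with Adamtsl4 at a fold of 8.59, Col19a1 at 6.54, and Col18a1 and Lamb2 at 5.98. Ion channel subunits had 17 of 253 (6.72%), led by Chrnb1, Cngb1, Kcnk12 with 10.8 and Grin2d with 8.03, and their median CpG ratio was 0.632. Solute carriers had 20 of 371 (5.39%), led by Slc45a3 with 11.6, Slc25a29 with 10.3 and Slc6a9 with 9.53. Interleukins, chemokines and their receptors had 11 of 134 (8.21%), and their median ratio was 0.375. Histone genes had 9 of 101 (8.91%), led by Hist2h2aa2 with 10.3 and Hist1h2bb with 8.39, but histone genes lie in clusters of close copies, so their peaks are uncertain; those of Hist2h2aa2 and Hist1h2bb also lie in the windows of Hist2h3c2 and Hist1h3c.

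Zinc finger genes had 17 of 424 (4.01%), led by Zfp9 with 10.7, Zfp664 with 9.90, Zfp599 with 9.72 and Zfp462 with 9.16. The Zfp664 peak also lies in the window of Ccdc92 and cannot be assigned to either. Of the 7 genes in the cadherin family, 6 belonged to the clustered gamma protocadherins, neuronal adhesion genes whose starts follow each other closely, with folds from 3.74 to 5.61, and the other was Pcdh17. Regulators of small GTPases had 7 of 81 (8.64%), led by Rasgrp2 with 8.59, which activates RAP1 in platelets. Sox, Fox, Tbx, Gata and Klf factors had 7 of 99 (7.07%), with 8.41 at Sox6, 7.29 at Tbx1 and 7.10 at Foxa3, and homeobox genes 6 of 91 (6.59%), led by Msx1 with 8.03. The Sox6 peak lies in the window of 1110004F10Rik too and the Foxa3 peak in that of Sympk, so neither can be assigned. Kinesins, dyneins and ciliary genes had 14 of 260 (5.38%), with Ccdc65 at 10.1 and Ift81 at 9.34. Ribosomal protein genes had 0 of 176 and odorant, taste and vomeronasal receptors 2 of 1518 (0.132%). The interval lay above the 3.79% of all coding genes for ion channels, collagens and their group, interleukins and theirs, histone genes and GTPase regulators. It included that value for solute carriers, zinc finger genes, cadherins, Sox and related factors, homeobox genes and ciliary genes.

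A partnered peak needs a shared peak, so its counts are read against the 10737 genes with a shared peak, of which 1445 (13.5%) had one. Of 20 housekeeping genes, all shared, 4 had one (20.0%, 8.07 to 41.6%): Ppia, Eef2, Pgk1 and Ywhaz, with folds from 5.42 to 7.66 next to shared peaks with folds from 24.1 to 54.4. Of 26 cell cycle genes, also all shared, 4 had one (15.4%, 6.15 to 33.5%), Mcm6 (a replicative helicase subunit), Ccnb2, Ccne1 and Cdk2, with folds from 5.23 to 8.88, and the Cdk2 peak also lies in the window of Pmel. Both intervals include 13.5%. Of the 26 macrophage lineage genes with a shared peak, 2 had a partnered peak. Cd68, a lysosomal glycoprotein, had a fold of 6.74 beside a shared peak of 50.1. Sirpa, the receptor for CD47, had 5.98 beside 38.4. The Wnt, Notch and hedgehog list had 43 genes, of which 14 had a shared peak. Of these 14, 5 had a partnered peak, namely Fzd4, Dll1, Jag1, Hey1 and Gli1. These list genes were named for being in a list and partnered, after their values were seen.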

How the data were processed

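H3K4me3 ChIP-seq peaks of 2 replicates of 1 group were analysed. The authors deposited a peak list for each replicate, a pooled list from both alignments and a replicated list, all on mm10, per the accompanying provenance texts. No source used here names the aligner, the caller or its thresholds. Each deposited peak carries a fold (a ratio), a −log10 p and a −log10 q value, a display score that was not used, and a summit offset that was not used. No counts were used, so no precision from depth can be given.

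Peaks were compared by overlap of at least 1 bp. Starts were those of protein-coding transcripts in GENCODE M21, with windows of 1000 bp on either side, and 0 peak ends lay beyond a GRCm38.p6 chromosome. The CpG ratio is the number of CG times the length, divided by the product of the numbers of C and G. Shares have 95% Wilson intervals, and no test was run, as there is 1 group. The peaks described, the gene lists (723 of 725 entries matched a gene; Cxcl11 and Clec7a did not) and the symbol families were chosen with earlier results of these data known.

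Genes were named by rule: of genes with lone peaks, the 10 highest folds, the 5 widest, and the 5 highest and 5 lowest CpG ratios; of partnered peaks, the 5 highest folds and 5 widest; up to 6 genes per list and 4 per family of at least 5, by falling fold; and the neighbours of each limit. Sequences were printed for 6 of these, none for chromosome 18. The overlap routine was checked against a direct search of the real peak lists, and the classes were tested on simulated data. Python 3.11.15, pandas 2.3.3, numpy 2.4.6, scipy 1.17.1 and matplotlib 3.10.9 were used. Other windows, starts, overlap rules and thresholds were tried.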

Additional observations from a re-analysis of the deposited data

How the results depend on the processing

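The number of peaks (2407) stayed within 1.5 times under windows of 500 and 2500 bp, 1 start per gene, all transcripts of coding genes, a minimum overlap of 50% of the peak and a minimum −log10 q of 5. It was 1167 when a replicate 2 peak within 1000 bp counted as shared, a rule that removes partnered peaks by construction, while the 922 lone peaks became 911. With the 15000 replicate 1 peaks of highest −log10 p alone there were 457 peaks, 162 lone peaks and 167 genes without a shared peak. With the replicated list in place of replicate 2 there were 1485 peaks, 516 lone peaks and 482 genes, all 482 among the 829 described, and 165 of the 167 were too. The median CpG ratio within 500 bp of the start was 0.661 at lone and 0.779 at partnered peaks, and over the peak itself 0.543 at partnered peaks. Windows of 500 bp and the omission of peaks at 2 or more genes left the median at lone peaks within its 95% order-statistic interval of 0.549 to 0.586. Requiring 50% of a peak to be covered gave 73.7% in the pooled and 37.8% in the replicated list. Leaving out a replicate gives no value, because the choice needs both. No paired analysis was possible because there is 1 group.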

Other observations

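By chromosome, the share of coding promoter peaks of replicate 1 that overlapped no replicate 2 peak was 20.8% on the X chromosome (94 of 452) and ran from 13.5% (chromosome 7) to 19.65% (chromosome 18) on the autosomes. On the Y chromosome it was 3 of 4. More than 50% of the bases were repeat-masked in 2.96% of partnered and 0.542% of lone peaks, against 0.212% of shared peaks. A window of 2 or more coding genes was touched by 6.73% of partnered and 2.93% of lone peaks, against 12.7% of shared peaks.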
